A study of Mus musculus with 4 samples.

Results

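The transcripts of CD103int DC, a dendritic cell (DC) population with intermediate CD103 and with CD11b, were set against those of macrophages sorted from the same tumour type. Both came from EO771 tumours, grown from a line of mouse breast cancer cells, and each population had 1 library of bulk RNA sequencing. Libraries of CD103+ conventional DC of type 1 (cDC1) and of CD11b+ conventional DC of type 2 (cDC2) from EO771 tumours gave levels for reference only. The labels give the tumour and the cell type for these 4 libraries and no strain, age, genotype, sorting gate or number of mice. The study's title names a heterodimeric interleukin-15 given near the tumour, and the labels do not state which tumours, if any, had received it.

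Genes were taken when the higher of both libraries held at least 10 CPM, a count per 1000000 reads on library sizes that the authors scaled. This left 8254 of the 13976 genes of the table, of which 8006 were protein coding. The difference between both libraries was taken on log2(CPM + 1), so that a positive value is a higher level in CD103int DC and a value of 1 or 2 is a 2-fold or 4-fold difference. This scale understates the difference of genes with low values. Folds are given as the plain ratio of both levels, with a 95% interval that covers counting error only. With 1 library per population no test was possible, and no difference here was checked against the spread between animals, sorts or libraries.

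As background, DC take up antigen in tissues, load it on major histocompatibility complex (MHC) class II molecules and present it to T cells. Macrophages are phagocytes that clear debris, bind complement and immunoglobulin and remodel tissue. Monocytes of the blood enter tumours and can take on features of either cell, so that many genes are shared between them. Type I interferons act on all of these cells through a receptor that activates STAT factors and a large set of antiviral genes.

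The column totals stood for an estimated 55960049 reads in the CD103int DC and 63817502 in the macrophage library, and 10 CPM stood for 574 and 546 estimated reads. Reads of ribosomal RNA origin fall in the gene models Gm26917 and Gm42418, which took 7.08% of the CD103int DC and 11.3% of the macrophage column. The column sums, 974649 and 1169346, were unequal, and rescaling them to equal totals moved the differences of most genes up by 0.26. The median difference over all genes compared was -0.07 as deposited and 0.18 at equal totals. The name of the macrophage column began with another prefix than those of the 3 DC columns. If that prefix marks a batch, the batch and the cell type cannot be told apart. In bulk samples fewer cells of a type and less RNA per cell cannot be told apart either.

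The genes of the sort markers and the lineage genes were looked at first. Itgae, which encodes CD103, stood at 77 CPM in cDC1, 1.1 in cDC2, 13.2 in CD103int DC and 5.5 in macrophages, so that its level in CD103int DC was 2.4-fold (2.1 to 2.75) that of macrophages. It shares its locus with Haspin on the other strand. Itgam, which encodes CD11b, was lower in CD103int DC than in macrophages, at 688 against 945 CPM, and Itgax, which encodes the DC integrin chain CD11c, was higher, at 1280 against 516 CPM. Zbtb46, a transcription factor of conventional DC, stood at 152, 22, 47.5 and 20.9 CPM in cDC1, cDC2, CD103int DC and macrophages. Flt3, the growth factor receptor of conventional DC, did not follow it and stood at 179, 15.8, 21 and 32.6 CPM in the same order. Among the 13 shared markers of conventional DC, 3 exceeded 2-fold towards CD103int DC and 0 towards macrophages (median 0.25, and 0.49 at equal totals). The macrophage receptor gene Csf1r was read in both, at 925 CPM in CD103int DC and 1538 in macrophages, as was Adgre1, which encodes F4/80, at 173 and 335 CPM. Mertk, a receptor for dying cells that marks many tissue macrophages, was low in all 4 libraries, at 15.6, 32.6, 19.4 and 17.6 CPM, and did not set the library labelled macrophage apart.

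Of the 8254 genes, 7209 (87.3%) lay within 2-fold. Past 4-fold lay 69 genes that were higher in CD103int DC (0.836% of those compared) and 108 that were lower (1.31%). Past 2-fold lay 359 higher genes (4.35%) and 686 lower genes (8.31%). The split depended on the scaling. Of the genes past 4-fold, 39% were higher in CD103int DC as deposited and 63.4% at equal totals, and of those past 2-fold the shares were 34.4% and 62.2%. All 69 higher genes and 68 of the 108 lower genes were past 4-fold in both scalings. Equal totals move differences upwards, so no higher gene could drop out, and the higher genes are not shown to be firmer by this. Of the 69 higher genes 13 (18.8%) belonged to DNA replication, mitosis or histone lists, which held 1.5% of all genes compared. Of the 108 lower genes 29 (26.9%) belonged to interferon lists and 17 (15.7%) to the monocyte list, which held 1.19% and 0.315% of all genes compared. All these lists were written with earlier results of these data known, so the shares are descriptions and no test of enrichment. Nearest to the 4-fold limit on the higher side were Mag inside it (18.9 against 3.96 CPM) and Hist1h2af outside it (24.4 against 5.36). On the lower side the less abundant of 2 Rmrp entries (61.4 against 249 CPM) was the last inside it.

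**Figure D1:**
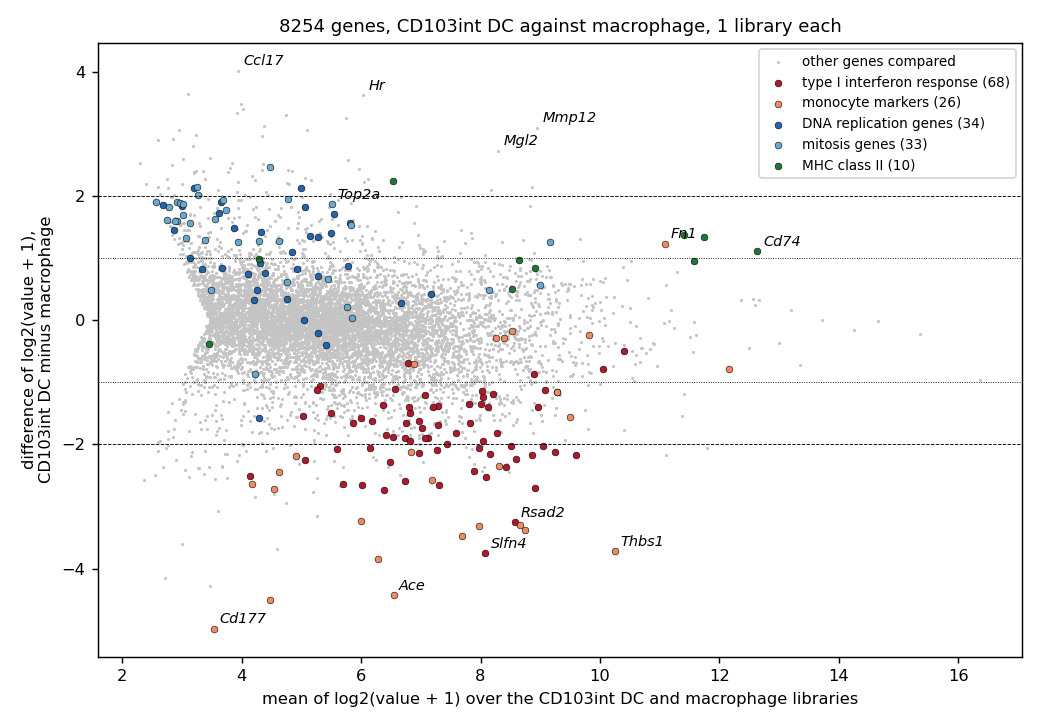
Each point is 1 of the 8254 genes, with on the x axis its mean log2(CPM + 1) over the CD103int DC and macrophage libraries and on the y axis the difference of log2(CPM + 1), dotted lines at 2-fold and dashed lines at 4-fold. The 68 type I interferon genes all lie below 0, while 32 of the 33 mitosis genes and 9 of the 10 MHC class II genes lie above 0.

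The coding gene furthest higher in CD103int DC was Ccl17 (ENSMUSG00000031780.2, chromosome 8, 94810453 to 94812036, plus strand), a chemokine that draws T cells bearing CCR4. It stood at 16.3, 34.1, 61.1 and 2.82 CPM in cDC1, cDC2, CD103int DC and macrophages, and CD103int DC exceeded macrophages 21.7-fold (18.4 to 25.6). CD103int DC held the highest level of the 4 libraries and macrophages the lowest. The next was Asgr2, a subunit of the asialoglycoprotein lectin receptor, at 3.61, 4.59, 29.5 and 1.43 CPM in the same order. Alox15, the lipoxygenase that makes 12- and 15-hydroxy fatty acids, stood at 51.6 CPM against 3.99 in macrophages. Mmp12, the macrophage elastase, had a large level in absolute terms, at 225, 1250, 1447 and 168 CPM, so that macrophages held the least of it (8.6-fold below CD103int DC, 8.41 to 8.78). The galactose lectin gene Mgl2 stood at 337, 368, 807 and 120.4 CPM, and Dcstamp, a membrane protein needed for cell fusion, at 13.6, 55, 83 and 7.55 CPM. Fcrls, an Fc receptor-like scavenger gene, stood at 165 CPM in CD103int DC and between 8.5 and 21.8 in the 3 other libraries. Hr, a nuclear corepressor, stood at 228 against 17.6 CPM, Ephx1, an epoxide hydrolase, at 46.9 against 3.77 CPM, and Slc27a3, an acyl-CoA synthetase of the fatty acid transporter family, at 60.2 against 6.03 CPM. Ccdc80, Ksr2, Plet1, Cd200r3, Synpo, Mras and Prelid2 were 8.29-fold to 13.9-fold higher, and Syn1 (26.2 against 3.46 CPM) overlaps Araf and Timp1 on the other strand.

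The coding gene furthest lower was Cd177 (ENSMUSG00000052212.6, chromosome 7, 24743983 to 24760311, minus strand), a surface protein of neutrophils and some monocytes. It stood at 1.63, 0.733, 1.06 and 63.7 CPM in cDC1, cDC2, CD103int DC and macrophages, a 59.9-fold (46.6 to 78.5) lower level in CD103int DC. The macrophage library alone was high. Ace, the angiotensin-converting enzyme, stood at 4.99, 93.8, 19.1 and 433 CPM, with cDC2 between CD103int DC and macrophages. Among coding genes lower in CD103int DC the largest absolute gap was that of Thbs1 (chromosome 2, 118111876 to 118127133, plus strand), which encodes the matrix protein thrombospondin. It stood at 17, 261, 336 and 4453 CPM, and macrophages exceeded CD103int DC 13.2-fold (13.1 to 13.4). Slpi, a secreted inhibitor of leukocyte proteases, stood at 1.5 against 47.5 CPM. Plcb1, Nxpe4, Hdc, Arhgef37 and Lipg were 7.75-fold to 14.9-fold lower. Cx3cr1, the fractalkine receptor, stood at 61.3, 40.4, 13 and 94.5 CPM, but its locus overlaps Csrnp1 and Gorasp1 on the same strand, so its reads are uncertain. Over the 108 genes at least 4-fold lower, the cDC2 level lay nearer to CD103int DC than to macrophages for 99, and the cDC1 level for 102. Over the 69 higher genes these counts were 39 and 37. The genes were chosen by the difference between CD103int DC and macrophages, and the same was not counted over all genes.

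**Figure D2:**
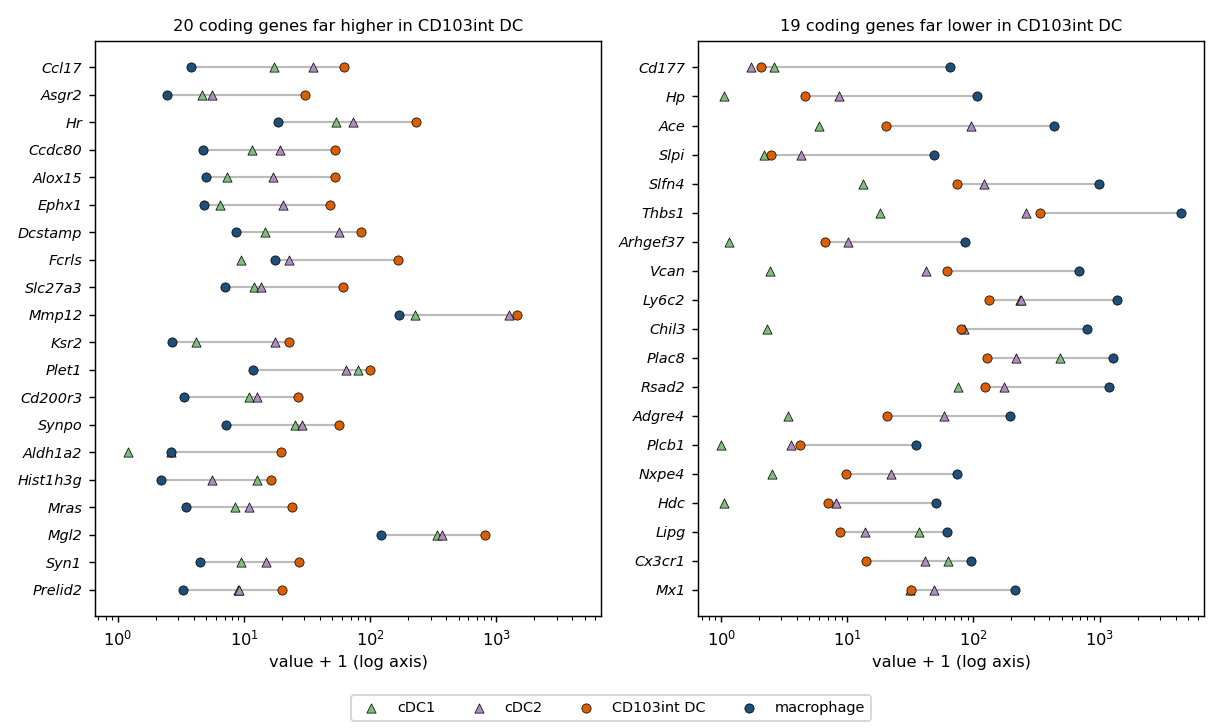
The 20 coding genes furthest higher (left) and 19 of the 20 furthest lower (right) in CD103int DC against macrophages, with CPM + 1 on a log axis; circles are the libraries compared and triangles the cDC1 and cDC2 libraries. Ccl17 reads 61.1 CPM in CD103int DC and 2.82 in macrophages, and Cd177 reads 1.06 and 63.7 CPM.

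Monocyte genes were lower in CD103int DC than in macrophages. Of 26 monocyte markers compared, 19 were at least 2-fold lower, 17 of them at least 4-fold, and 1 was higher (median -2.51, against -0.07 over all genes, and -2.25 at equal totals). The list held genes of classical monocytes. Ly6c2, the classical monocyte antigen, stood at 233, 236, 132 and 1371 CPM in cDC1, cDC2, CD103int DC and macrophages, and summing it with the near-identical Ly6c1 left a 10.4-fold (10.1 to 10.6) gap. Macrophages were the highest of the 4 libraries, and CD103int DC the lowest. Plac8 stood at 128 against 1276 CPM, the versican gene Vcan at 60.6 against 685, the haptoglobin gene Hp at 3.66 against 105, and Chil3, a chitinase-like protein, at 78.5 against 788. Genes of patrolling monocytes were lower too: Ace, Treml4 (9.58 against 56.4 CPM), Adgre4 (19.7 against 195), Eno3 (6.2 against 43.8) and Cd300e (13.1 against 62.9). Not all monocyte genes took part. Ccr2, the receptor that brings monocytes into tissue, stood at 832 against 978 CPM and S100a4 at 344 against 389, and both of these small differences changed sign at equal totals. Fn1, fibronectin, went the other way, at 109, 1195, 3325 and 1422 CPM.

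The neutrophil list was read beside this because Cd177 and Clec4e are also expressed by neutrophils. Of its 17 genes 6 were in the table and 3 were compared. Their summed level was 119.6 CPM in CD103int DC and 222 in macrophages, most of it Csf3r (33.2 against 157 CPM) and the decoy receptor Il1r2 (77.7 against 49.3). The part of neutrophil RNA in the lower genes was not tested.

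Genes induced by type I interferon were lower in CD103int DC as a body. Of 68 compared, 64 were past 2-fold and 26 past 4-fold, where all genes gave 8.31% and 1.31%, and 0 were higher by any amount (median -1.83, and -1.57 at equal totals). The median of other coding genes of like exonic length was -0.04. The antiviral enzyme gene Rsad2 stood at 73.9, 174, 123 and 1184 CPM in cDC1, cDC2, CD103int DC and macrophages, and Ifit2, which binds foreign RNA, at 158, 289.9, 189 and 1233 CPM. Macrophages held the highest level of both, and the 3 DC libraries lay well below it. Slfn4, a schlafen gene of myeloid cells, had the widest gap of the list, at 72.7 against 991 CPM. The ubiquitin-like Isg15 (101 against 551 CPM), the GTPases Mx1 (31.2 against 214) and Mx2 (6.38 against 40.9), the exonuclease Isg20 (19.9 against 129) and the nucleotide kinase Cmpk2 (62 against 396) were also at least 4-fold lower. The 4 genes of the list within 2-fold were Slfn2, Ly6e, Irf9 and Samhd1, whose differences ran from -0.86 to -0.50.

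The lower interferon genes stood in blocks along the chromosomes (GRCm38 coordinates from the GENCODE annotation). Runs were counted where at least 4 neighbouring compared genes were each past 2-fold in the same direction. A run of 10 genes of the Ifi200 cluster, which encode DNA-binding sensors, lay between 173468485 and 174031810 on chromosome 1 (median -1.92, from -2.29 to -1.66). On chromosome 19 the run of Ifit2, Ifit3, Ifit1bl1, Ifit3b and Ifit1 had a median of -2.59, and on chromosome 5 the run of Oas2, Oas3, Oas1g and Oas1a, the synthetases that activate RNase L, had a median of -1.86. A run of 5 genes around Trim30a on chromosome 7 (median -1.94), a run of 4 schlafen genes on chromosome 11 (median -1.73) and a run of 4 guanylate-binding protein genes on chromosome 3 (median -1.34) were of the same kind. Near-identical neighbours such as Ifit3 and Ifit3b can share reads. Their sum was 138 CPM in CD103int DC and 819 in macrophages, 5.93-fold (5.79 to 6.07) lower.

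The interferon-stimulated response element is the DNA motif bound by the STAT and IRF complex that interferon activates. Its core, GAAANNGAA on either strand, was searched in the 250 bases before each RefSeq start (GRCm38.p6) and was present in 7.13% of all 32851 windows of that length. The table held a window for 79.8% of the compared coding genes, so no share is given for a list. The stretches below are from 3 genes that differ together in the comparison. Interferon genes without a match were left out, so the presence of a match in these 3 is no result. Capitals mark the core or its reverse complement, and where matches overlap the capitals run together. They are from Isg15 (chr4:156200856-156200916, minus strand), Ifit3 (chr19:34583354-34583455, plus strand) and Rsad2 (chr12:26456543-26456591, minus strand).
Isg15: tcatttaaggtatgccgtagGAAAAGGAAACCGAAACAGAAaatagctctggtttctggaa
Ifit3: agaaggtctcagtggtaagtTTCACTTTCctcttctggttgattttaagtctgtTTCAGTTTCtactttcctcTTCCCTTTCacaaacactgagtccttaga
Rsad2: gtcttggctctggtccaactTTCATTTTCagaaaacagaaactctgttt
Isg15 and Ifit3 held 3 matches each in the stretch shown and Rsad2 held 1. A match is a run of letters and was not tested as a binding site.

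Genes of the interferon gamma response were lower by less. Of 32 compared, 20 were at least 2-fold lower, 3 of them at least 4-fold, and 0 were at least 2-fold higher (median -1.10, and -0.84 at equal totals). The lowest were the chemokine genes Cxcl10 (112 against 605 CPM) and Cxcl11 (3.81 against 23.7) and Acod1, which makes itaconate (34.3 against 149). Ciita, the master regulator of MHC class II, is also induced by interferon gamma and was not lower, at 437 against 309 CPM. The same held for Nos2, inducible nitric oxide synthase (26.6 against 19.6), and the peptidase Lap3 (105 against 55.2). Among the factors and receptors of the pathways Irf7 stood apart, at 473, 636, 366 and 1648 CPM in the 4 libraries. Stat2, a signal factor of the type I receptor, was past 2-fold (171 against 401 CPM), while the receptor chains Ifnar1 (142 against 262), Ifnar2 (71.8 against 119) and Ifngr1 (149 against 258) were within it.

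MHC class II genes were higher in CD103int DC. Past 2-fold were 4 of the 10 compared, and 0 were lower by that much (median 0.97, and 1.23 at equal totals), and their summed level was 25331 CPM in CD103int DC and 11357 in macrophages. H2-Ab1, a chain of the I-A molecule, stood at 3660, 5553, 5454 and 2146 CPM in cDC1, cDC2, CD103int DC and macrophages, and its partner H2-Aa at 3076, 4601, 4236 and 2172. H2-Eb1, a chain of the I-E molecule, stood at 2891, 4608, 4371 and 1680 CPM. For these 3 genes the macrophage library was the lowest, and CD103int DC lay close to cDC2. Cd74, the invariant chain that guides class II to the endosome, was 2.17-fold (2.15 to 2.18) higher. H2-DMb2, a chain of the peptide exchanger H2-DM, stood at 222, 117, 200.3 and 41.3 CPM. Its near-identical neighbour H2-DMb1 can share its reads, and their sum was 2.11-fold (2.07 to 2.14) higher. H2-Eb2 was the exception, at 8.55 against 11.4 CPM.

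Class II promoters carry a Y box, an inverted CCAAT, close to the start. CCAAT on either strand was present in 33.8% of all windows. The stretches are from H2-Aa (chr17:34287847-34287891, minus strand), H2-Eb1 (chr17:34305788-34305856, plus strand) and H2-DMb2 (chr17:34145139-34145183, plus strand), and capitals mark CCAAT or its reverse complement ATTGG.
H2-Aa: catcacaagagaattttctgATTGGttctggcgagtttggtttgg
H2-Eb1: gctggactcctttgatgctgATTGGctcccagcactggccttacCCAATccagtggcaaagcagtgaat
H2-DMb2: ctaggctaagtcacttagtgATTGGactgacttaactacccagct
Only genes with a match were shown, so the presence of a box in these 3 is no result. All 3 held the inverted form ATTGG, and letters of this kind are common to many promoters.

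MHC class I genes did not follow class II. Of 24 genes of class I and peptide loading, 3 were at least 2-fold lower, 1 was higher and 21 lay below 0 (median -0.51, and -0.25 at equal totals). Across all genes compared, 8.31% passed 2-fold downwards and 4.35% upwards, and the median was -0.07 (0.18 at equal totals). The heavy chain genes H2-K1 (1464 against 2107 CPM) and H2-D1 (2542 against 3611), B2m (1550 against 2139) and the peptide transporter Tap1 (395 against 633) were lower by less than 2-fold. Nlrc5, the class I activator, stood at 144 against 331 CPM. The nonclassical H2-M2 was opposite, at 5.16, 63.6, 32.2 and 6.07 CPM in the 4 libraries, and it was low in both cDC1 and macrophages.

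Genes of cell division were higher in CD103int DC. Past 2-fold were 25 of 33 mitosis genes, all higher (median 1.59, and 1.81 at equal totals), and of 34 DNA replication genes 17 were higher and 1 lower (median 0.96). Top2a, the topoisomerase of dividing cells, stood at 113, 34.6, 86.3 and 22.9 CPM in cDC1, cDC2, CD103int DC and macrophages, and Mki67, which encodes the Ki-67 antigen, at 42.7, 25, 95.8 and 32.3 CPM. CD103int DC held the highest Mki67 of the 4 libraries, while Top2a was highest in cDC1. Stmn1, which destabilises microtubules, was 6.1-fold (5.52 to 6.74) higher than in macrophages, and the cyclin gene Ccnb2 stood at 18.3 against 3.77 CPM. Among replication genes the polymerase gene Pole (18.3 against 3.41 CPM), Uhrf1, which keeps DNA methylation through replication (65.8 against 14.3), and the helicase subunits Mcm5 (83.4 against 24.8) and Mcm3 (95.5 against 31.8) were far apart. Pcna, the polymerase clamp, differed little, at 165 against 123 CPM. Kif20a, Ccna2, Cdc20 and Mcm7 overlap a gene on the other strand, and Ncapd2 hosts the small RNA Scarna10 on the same strand.

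Promoters of mitosis genes often hold CCAAT boxes near the cell cycle homology region, TTTGAA, and those of replication genes often hold the E2F core TTTNNCGC. On either strand these were present in 33.8%, 16% and 4.28% of all windows. Top2a (chr11:99024190-99024287, minus strand) and Ccnb2 (chr9:70421555-70421628, minus strand) are shown with CCAAT boxes or their reverse complements in capitals. In Top2a capitals also mark the reverse complement of TTTGAA, and the Ccnb2 stretch holds no such match. Mcm5 (chr8:75109336-75109387, plus strand) and Uhrf1 (chr17:56303261-56303308, plus strand) are shown with the E2F core in capitals, and in Mcm5 matches on both strands overlap.
Top2a: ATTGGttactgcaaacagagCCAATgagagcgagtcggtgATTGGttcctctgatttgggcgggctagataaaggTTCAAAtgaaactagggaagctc
Ccnb2: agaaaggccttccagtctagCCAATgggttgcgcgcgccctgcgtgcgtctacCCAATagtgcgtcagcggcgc
Mcm5: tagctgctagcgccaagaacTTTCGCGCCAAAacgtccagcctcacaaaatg
Uhrf1: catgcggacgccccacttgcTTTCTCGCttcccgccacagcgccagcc
Top2a held 4 matches in its stretch, 1 of them TTTGAA, and Ccnb2 held 2 CCAAT boxes. Here too only genes with a match were shown.

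Histone genes of the replication-dependent clusters had the direction of the division genes. Past 2-fold were 38 of the 57 compared, all higher (median 1.34). Their transcripts are near-identical, so the sums over each class are the firmer values. H3 genes summed to 529 CPM in CD103int DC and 159.9 in macrophages, 3.31-fold (3.23 to 3.39), and H2B genes to 569 and 191, 2.98-fold. H2A genes differed by 1.79-fold, the linker H1 by 1.55-fold and H4 by 1.4-fold. On chromosome 13 the higher histone genes formed 4 runs of neighbours, the longest with 12 genes between 23533906 and 23577011 (median 1.66). Histone genes are short, and other coding genes of like exonic length had a median of 0.21.

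Macrophage markers were split. Of 22 compared, 9 were at least 2-fold lower in CD103int DC and 5 higher (median -0.81, and -0.55 at equal totals). The lower ones included Fcgr1, the high-affinity IgG receptor, at 76.5, 334, 173 and 608 CPM in the 4 libraries, the sialic acid receptor Siglec1 (71.2 against 268 CPM), Apoe (67.5 against 243), Gpnmb (54.5 against 190.3) and the transcription factor Maf (85.7 against 231). The higher ones were the complement genes C1qa, C1qb and C1qc, the lipid receptor Trem2 and Pltp, a phospholipid transfer protein. C1qb stood at 49.1, 631, 328 and 137 CPM, so that cDC2 and CD103int DC both exceeded the library labelled macrophage. Pltp stood at 100, 431, 595 and 139 CPM, and it overlaps Ctsa on the other strand, whose level was alike in both (403 and 448 CPM). Lipid handling genes mostly differed little, with 15 of the 25 compared inside the 2-fold limit. Beyond it, 6 leaned to CD103int DC and 4 to macrophages, where all genes gave 4.35% and 8.31%. The midpoint of this list was -0.29 (-0.04 at equal totals), and its summed level was 9593 CPM against 10006 in macrophages. Members on opposite sides were Lpl, lipoprotein lipase, at 859.8 against 239 CPM and Apoc2 at 1.46 against 12.8 CPM. Over the 15 complement genes compared, 5 were past 2-fold higher and 6 lower. Beside C1q the higher ones were properdin (Cfp, 505 against 210.3 CPM) and Itgax, a chain of complement receptor CR4, and the lower ones were led by C3, the central component (349 against 1328), and Cfb (224 against 679). The median of this list was -0.46, and it turned to 0.13 with a minimum of 50 CPM. In the Ms4a family of tetraspan proteins 6 of 8 compared genes were at least 2-fold lower and 0 higher (median -1.91), with Ms4a4a at 32 against 214 CPM. A run of 7 neighbours on chromosome 19, 6 of them of this family, had a median of -2.17.

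Chemokine ligands were split by gene. Of 11 CC ligands, 5 were at least 2-fold higher in CD103int DC and 6 lower, so that the median (-1.09) and the mean (0.19) differ in sign. Higher were the CCR4 ligands Ccl17 and Ccl22, the latter at 6.63, 18.3, 31.6 and 4.97 CPM in the 4 libraries, Ccl6 (985 against 221 CPM), Ccl9 (655 against 268) and the eosinophil attractant Ccl24 (66.9 against 28.2). CD103int DC held the highest level of each of these 5, for Ccl24 by little over cDC2 (66.3 CPM). Lower were Ccl3 (18.7 against 45.3 CPM), Ccl4 (22 against 117) and Ccl5 (10.5 against 39.5), which draw T cells and monocytes, and the CCR2 ligands Ccl2 (30.7 against 66.5), Ccl7 (11.4 against 28.5) and Ccl12 (4.32 against 12). Among CXC ligands, the CXCR3 ligands Cxcl10 and Cxcl11 were at least 4-fold lower, but Cxcl9, which binds the same receptor, stood at 195 against 276 CPM. Of 13 receptors for chemokines and other attractants 7 were at least 2-fold lower as deposited and 0 were higher by any amount. Their median was -1.02, and -0.76 at equal totals, where Ccr2 turned from -0.23 to 0.03. Past 2-fold, all genes gave 8.31% lower and 4.35% higher. The lower receptors included Cxcr4 (217 against 679 CPM), the formyl peptide receptors Fpr1 (3.15 against 18) and Fpr2 (15.9 against 80.2) and the C5a receptor C5ar1 (70.2 against 168). Ccr7, which takes DC to lymph nodes, was low in both, at 11.1 and 14.4 CPM.

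**Figure D3:**
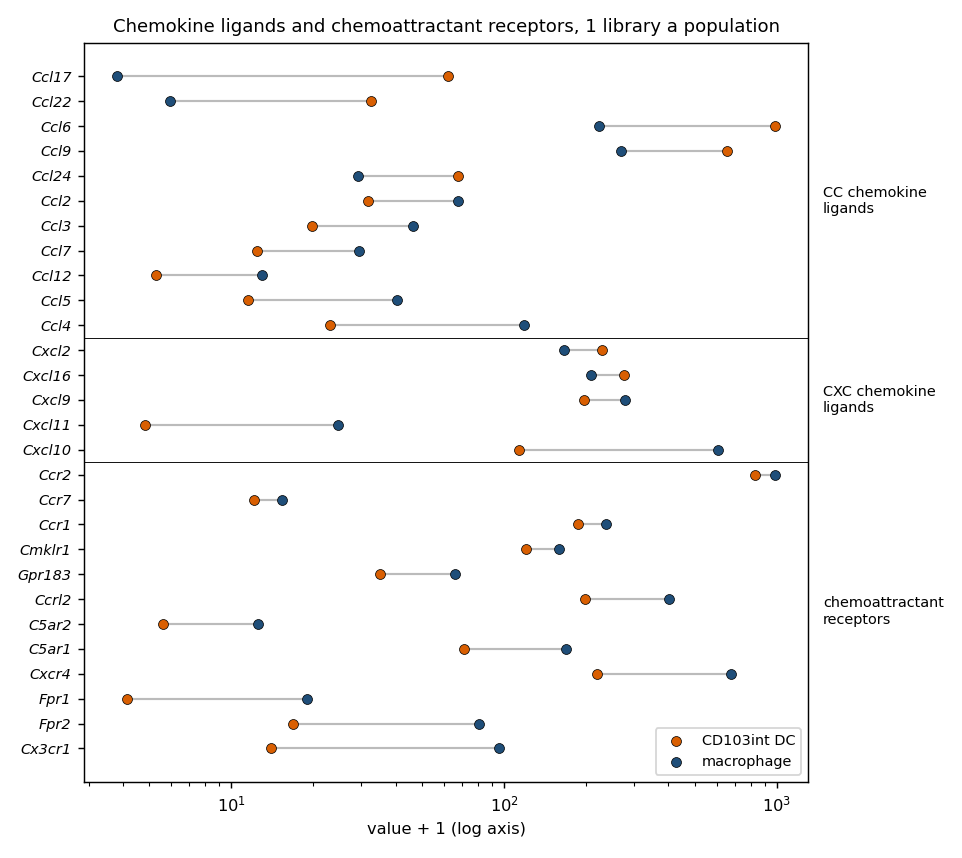
CPM + 1 on a log axis for the chemokine ligands and 12 of the 13 attractant receptors compared, in CD103int DC (orange) and macrophages (blue), 1 library each. Ccl17, Ccl22, Ccl6, Ccl9 and Ccl24 lie to the right in CD103int DC, and the 12 receptors drawn lie to the right in macrophages.

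Among 21 cytokine genes 8 were at least 2-fold lower in CD103int DC, 0 were higher and 13 lay within 2-fold (median -0.70, and -0.44 at equal totals). Over all genes 8.31% were lower and 4.35% higher by that much. Il1b stood at 232, 946, 735 and 2495 CPM in the 4 libraries and Il18 at 1.79, 5.97, 3.83 and 27.2, with macrophages highest in both. Tnf was closer, at 47.2 against 77.3 CPM. Il15, which sustains natural killer and CD8 T cells, stood at 1.22, 6.7, 6.25 and 23.7 CPM, and Il15ra, the chain that presents it, at 5.24, 8.17, 5.7 and 24.6. Macrophages were the highest of the 4 libraries in both genes, 3.79-fold (3.37 to 4.28) and 4.32-fold (3.82 to 4.89) above CD103int DC. The shared receptor chain Il2rg stood at 158 against 270 CPM and the signal gene Stat5a at 61.4 against 65.9. Inflammasome genes Casp4 (20.2 against 101 CPM), Mefv (33.7 against 165) and Nlrc4 (8.6 against 32.5) were lower, while the adaptor Pycard (69.4 against 63.3) was level. A pair of receptors of the interleukin-1 family went the other way, namely Il1rl1, the interleukin-33 receptor, at 0.224, 1.23, 21.9 and 3.72 CPM, and Il1rl2, the interleukin-36 receptor, at 16.7 against 5.68 CPM.

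Genes of NF-kB signalling and of innate sensing were more often lower than higher past 2-fold, and most lay within it. All genes compared also leaned this way, with 8.31% lower and 4.35% higher. Of 31 NF-kB factors and feedback genes 9 were at least 2-fold lower and 0 higher (median -0.81, and -0.55 at equal totals). Rel stood at 203 against 505 CPM, the inhibitor Nfkbie at 149.8 against 379.8 and Nfkb2 at 118 against 246, while Zfp36 (1083 against 1055) was level. Of 34 pattern receptors 10 were at least 2-fold lower and 3 higher (median -0.52, and -0.27 at equal totals). The RNA sensor Tlr7 stood at 37.4 against 197 CPM, the DNA sensor Tlr9 at 144 against 441, the lipopeptide sensor Tlr2 at 145 against 435 and the C-type lectin Clec4e at 58.6 against 353. Tlr4, the endotoxin receptor, was near level at 52.6 against 59.5 CPM. The 3 higher receptors were the lectins Asgr2, Mgl2 and Clec4b1 (42.5 against 9.82 CPM).

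Costimulation was not uniformly higher in the DC population. Of 24 costimulatory and checkpoint ligands 8 were at least 2-fold lower in CD103int DC and 4 higher (median -0.51). For all genes the shares were 8.31% lower and 4.35% higher. Cd274, which encodes PD-L1, stood at 65.7, 216, 138 and 419.8 CPM in the 4 libraries, and Pdcd1lg2, which encodes PD-L2, at 29.3, 104, 101 and 32.5. These neighbouring genes on chromosome 19 thus differed in opposite directions. Cd40 (49.2 against 136 CPM) and Cd80 (31.2 against 63.9) were lower and Cd86 was within 2-fold (117 against 141). Cd226, an activating adhesion receptor, stood at 16.9, 7.87, 48.1 and 7.53 CPM, highest in CD103int DC. Among markers of other DC types, Cd24a stood at 241, 24.9, 151 and 30.5 CPM and the co-receptor gene Gfra2 at 96.9, 13.9, 77.3 and 15.3. In both, cDC1 and CD103int DC were high and cDC2 and macrophages low. This did not hold for the cDC1 markers as a list. Against macrophages, 4 of the 15 compared were at least 2-fold higher in CD103int DC and 1 was lower (median 0.68). Wdfy4 (1728, 297, 449 and 511 CPM) and Tlr3 (108, 15, 16.7 and 29.4), for example, were high in cDC1 and not higher in CD103int DC than in macrophages. Of 15 cDC2 markers compared 2, Mgl2 and Il1rl1, were at least 2-fold higher in CD103int DC and 0 were lower by that much. The median of this list was -0.10, and 0.16 at equal totals. Its members Sirpa (837 against 1212 CPM) and Cd209a (78.8 against 68.9) were within 2-fold.

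Most transcription factor genes lay within 2-fold, and those past it were more often lower in CD103int DC. The shares over all genes were 8.31% lower and 4.35% higher. Of 18 DC factors 4 were at least 2-fold lower and 1, Zbtb46, higher (median -0.70, and -0.44 at equal totals). Of 34 macrophage and monocyte factors 9 were lower and 0 higher (median -0.67, and -0.41 at equal totals). Nr4a1, the factor of patrolling monocytes, stood at 318, 409, 418 and 1236 CPM, with macrophages apart from the 3 DC libraries. Klf2 (76.3 against 201 CPM), Bcl6 (52.3 against 136) and Cebpb (409 against 857) were also lower. Irf8 (193 against 268 CPM) and Irf4 (71.6 against 49.9), the factors of the cDC1 and cDC2 lineages, were within 2-fold. Of 26 growth factor receptors 8 were at least 2-fold lower and 1 higher, led by Csf3r and by the interleukin-10 receptor chain Il10ra (203 against 516 CPM). The chains of the granulocyte-macrophage factor receptor, Csf2ra (337 against 315 CPM) and Csf2rb (525 against 563), were level.

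Genes of alternative activation, the programme that interleukin-4 and interleukin-13 set in macrophages, were more often higher in CD103int DC. Of 22 compared, 9 were at least 2-fold higher, 4 of them at least 4-fold, and 3 lower (median 0.63, and 0.89 at equal totals). Past 2-fold, all genes gave 4.35% higher and 8.31% lower. Beside Ccl17, Ccl22 and Mgl2 the higher genes included Retnla, a resistin-like protein listed at 0 in cDC1 and at 14, 142 and 29.9 CPM in cDC2, CD103int DC and macrophages, and the ribonuclease gene Ear2 at 228 against 63.0 CPM. Arg1, arginase, stood at 0.673, 59.7, 96.2 and 48 CPM, at the 2-fold limit. Chil3 was opposite, and Il4ra, the shared receptor chain, stood at 176 against 232 CPM. In the arginine and itaconate genes Arg2 (1.81 against 13.5 CPM, beside Vti1b on the other strand) and Acod1 were lower and the arginine transporter Slc7a2 was higher (69.3 against 21.7).

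Retinoic acid, made from retinal, imprints gut homing and regulatory features on T cells. Aldh1a2, the enzyme of its last step, stood at 0.204, 1.62, 18.7 and 1.61 CPM in the 4 libraries, so that CD103int DC alone was high. Among 9 genes of this pathway 3 passed 2-fold upwards and 1 downwards (median 0.52), but the median over the 3 genes with at least 50 CPM was -0.74. The summed level of the list was 646 CPM against 1041 in macrophages, with the retinol enzymes Dhrs9 (27.8 against 7.2 CPM) and Dhrs3 (46.5 against 18.4) higher and Tgm2, a retinoid-induced transglutaminase, lower (299.8 against 759.9). In the eicosanoid genes Alox15, Alox5 (26.5 against 9.16 CPM) and the thromboxane synthase Tbxas1 (123 against 44.7) were higher and Ptgs2, inducible cyclooxygenase, was lower (279.9 against 587). Coagulation genes were mixed, with factor VII (F7, 123 against 30.2 CPM) and the thrombin receptor F2rl2 (20.6 against 3.08) higher and thrombomodulin (Thbd, 18.8 against 125) and factor XIII (F13a1, 53.5 against 237) lower. F2rl2 lies within Iqgap2 on the other strand. Of the matrix protein genes Thbs1 and Vcan were lower and Fn1 higher, and among 13 proteases and inhibitors Mmp12 and Timp2 (116 against 50.4 CPM) were higher and Mmp8 lower (4.08 against 11.9).

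Ribosomal protein and respiratory chain genes showed small differences of 1 sign. Of 81 ribosomal protein genes 80 lay above 0 with a median of 0.56, and 1, Rps26, was past 2-fold. Of 77 nuclear genes of the respiratory chain and ATP synthase 76 lay above 0 with a median of 0.52, and 1, Ndufa12, was past 2-fold. The 10 genes of the mitochondrial genome had a median of 0.18 and the 37 proteasome genes one of 0.21. Short genes were higher in general. With coding genes in 5 equal groups by exonic length the median difference was 0.17 in the shortest group, then -0.02, -0.09 and -0.15, and -0.20 in the longest. Other coding genes of the length of the ribosomal protein genes (865 to 3526 bases) had a median of 0.07, and those of the length of the respiratory chain genes one of 0.05. The part of gene length in these differences was not tested further. Glycolysis and hypoxia genes mostly differed little, with 29 of the 33 compared inside the 2-fold limit. Beyond it, 3 leaned to CD103int DC and 1 to macrophages, where all genes gave 4.35% and 8.31%. Above 0 lay 20 and below it 13, around a midpoint of 0.21 (0.46 at equal totals). Among abundant members Gapdh (2036 against 1049 CPM), Aldoa (1166 against 601) and Gpi1 (695 against 328) were higher. Gapdh and Aldoa were within 2-fold. Hif1a, the oxygen-regulated factor, stood at 164 against 286 CPM and Vegfa at 72.6 against 119.

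Small structural RNAs were lower in CD103int DC. All 6 snoRNA genes compared were at least 2-fold lower (median -1.85), as were 3 of 5 scaRNA genes (median -1.31). Rn7sk, the 7SK RNA that holds back transcription elongation, stood at 1379, 2164, 1741 and 7239 CPM in the 4 libraries, and Rmrp, the RNA of a mitochondrial and nucleolar RNase, was 4.98-fold and 4.06-fold lower in its 2 overlapping entries. The macrophage library was apart from the 3 DC libraries in Rn7sk, in Rmrp and in Scarna10 (68.4, 104, 104 and 479.6 CPM). The share of the column taken by Gm26917 and Gm42418 differed in the same direction, as given above, and the part of library preparation in these RNAs was not tested.

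**Figure D4:**
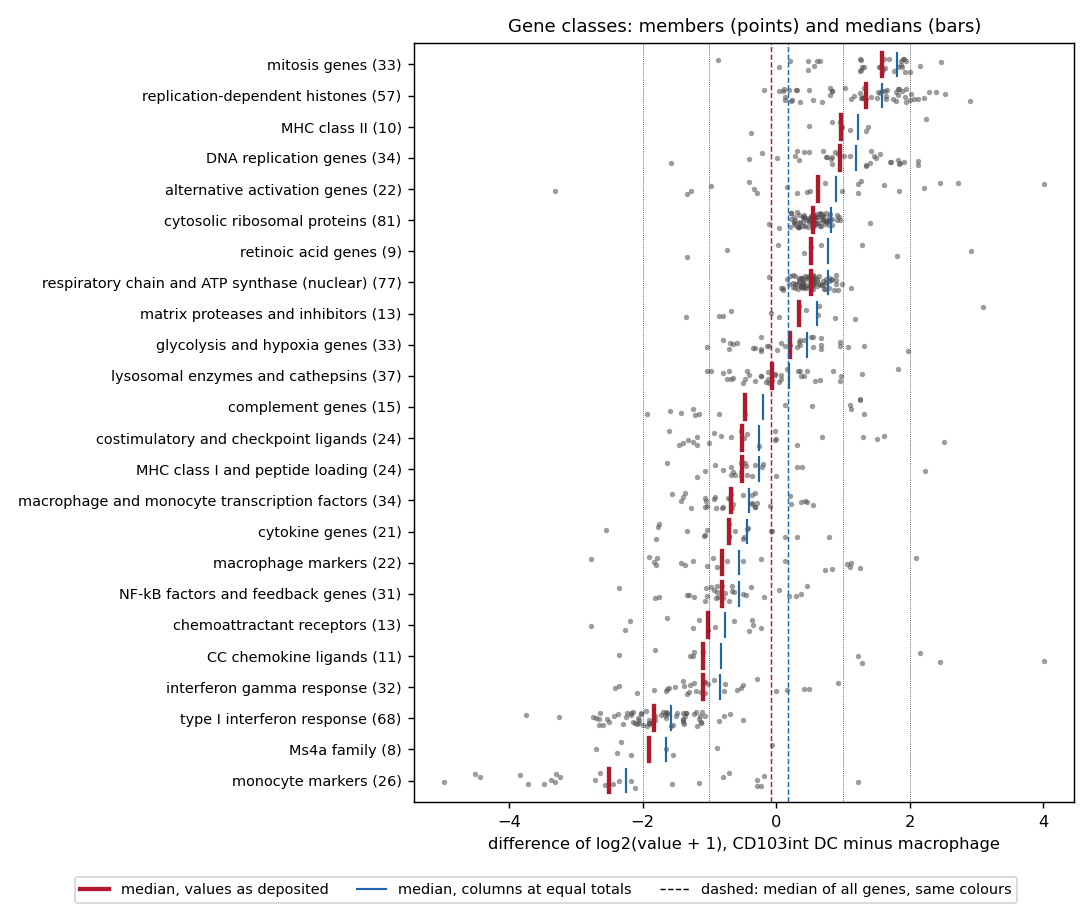
Differences of log2(CPM + 1), CD103int DC minus macrophage, for the members of 24 gene lists (points; number compared in brackets), with the list median as deposited (red bar) and at equal totals (blue bar) and the medians of all genes as dashed lines. The lists run from monocyte markers (median -2.51) at the bottom to mitosis genes (1.59) at the top.

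Most markers of other cell types in the table were low in both libraries, with Il7r, Klrk1, Kdr and Cdh1 among the exceptions. The summed level of T cell markers was 102 CPM in CD103int DC and 82.7 in macrophages, most of it Il7r, and the T cell receptor complex gene Cd3e was at 0.0174 and 0.715 CPM, the former the value of 1 read. Natural killer markers summed to 85.5 and 92.0 CPM, almost all Klrk1, with the defining Ncr1 at 0.122 and 0.238. B cell markers summed to 23.9 and 84.1 CPM, mostly Ighm (22.4 against 73.0), and Igkc stood at 0.0174 and 7.38. Fibroblast markers summed to 12.1 and 24.6 CPM. Endothelial markers summed to 111 and 305 CPM, most of it Kdr (63.9 against 239), while epithelial markers summed to 268 and 129, mostly Cdh1 (195 against 87.9), which cDC1 held at 416. Many members of these lists were not among the genes of the filtered table, and those that were had a value above 0 in both libraries. Their part in the comparison was not tested.

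Of the 177 genes past 4-fold, 35 higher and 43 lower genes belonged to no list. Higher were the potassium channel Kcnn4 (152 against 36.4 CPM), the lectin receptor Klrb1b (144 against 25.9), the growth factor receptor Fgfr1 (62.3 against 10.8), the adaptor Blnk (40 against 7.53) and the metallothionein Mt1 (39.3 against 7.05). Lower were Rnf213 (1038 against 4661 CPM) and Helz2 (152 against 834), both known to be induced by interferon, Mxd1, an antagonist of MYC (116 against 604), the nucleoside transporter Slc28a2 (41.4 against 237), the glutathione reductase Gsr (58.3 against 289) and the adhesion receptor Adgre5 (113 against 476). These were picked out after their values were seen. Among genes named above, Irf7, Il18, Cxcl11, Cd274, Pdcd1lg2, Tbxas1, Cebpb and Adgre5 overlap a gene on the other strand, and reads of the 2 strands cannot be told apart without the strand setting of the counting.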

How the data were processed

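RNA of 4 sorted populations was sequenced, with 1 library each. Kit columns, DNase I and a directional library kit were used, per the labels' protocols. The authors deposited an expression signal in 1 table, named as filtered CPM with trimmed mean of M values scaling. For the aligner, the counting and its strand setting, the sources used here give nothing. Each of the 13976 identifiers matched GENCODE M21 (GRCm38).

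Values were used as deposited. The step between low values was taken as 1 read (0.0174 CPM in CD103int DC, 0.0183 in macrophages), and 70.6% and 70.9% of the values were whole multiples of it, within 0.001 of a step. Intervals are exact Poisson or binomial 95% intervals on these reads, and amplified reads are not independent molecules. At 10 CPM the counting error was 4.17% and 4.28%. Genes counted when log2(CPM + 1) differed by at least 1 or 2. Named are the 20 coding genes furthest apart in each direction and past 4-fold in both scalings, up to 8 members and the defining genes of each list, and the sort genes. Other members, such as those near level, were picked after their values were seen, and some genes are not reported here. The genes, lists and rules were chosen with earlier results of these data known. Alternatives were 3 rescalings, added constants of 0.1 and 5, minimums of 1 and 50 CPM, and coding genes alone. The counting rule was tested on simulated data. Python 3.11.15, pandas 2.3.3, numpy 2.4.6, scipy 1.17.1 and matplotlib 3.10.9 were used.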

Additional observations from a re-analysis of the deposited data

How the results depend on the processing

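The counts moved with scaling, constant and minimum. The 69 genes at least 4-fold higher became 118 at equal totals, 115 at equal coding totals, 27 with a constant of 5 and 29 with a minimum of 50 CPM, and the 108 lower became 68 at equal totals and 71 with a constant of 5. The 359 at least 2-fold higher became 672 at equal totals, 621 at equal coding totals, 652 with a minimum of 1 and 131 with a minimum of 50, and the 686 lower became 409 and 442 at equal totals and equal coding totals. The other settings kept these counts within 1.5 times. Of 56 list medians 6 changed sign at equal totals, each smaller than 0.2 as deposited, and the CC chemokine median turned from -1.09 to 1.25 with a minimum of 50, which left 6 genes. With that minimum the medians of retinoic acid genes (0.52 to -0.74), cDC1 markers (0.68 to -0.19), complement genes (-0.46 to 0.13) and sterol genes (0.13 to -0.01) also changed sign, as did those of oxidase and unfolded protein response genes (both -0.04), and with a minimum of 1 that of CXC ligands (-0.50 to 0.39) and purinergic genes (-0.07 to 0.06). No paired analysis was possible because each population had 1 library, and for the same reason no replicate could be left out.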

Other observations

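In some further gene groups most members lay within 2-fold between CD103int DC and macrophages, as did 87.3% of all genes compared. Past 2-fold, all genes gave 4.35% higher and 8.31% lower. Of 37 lysosomal enzymes and cathepsins 2 were at least 2-fold higher in CD103int DC and 1 lower (median -0.06, and 0.20 at equal totals). The higher ones were Lyz1 (81.3 against 22.4 CPM) and the tetraspanin Cd63 (127 against 51.6), and the lower one was the acid phosphatase Acp2 (119.7 against 245). Lyz2, the macrophage lysozyme, stood at 3479 against 6022 CPM, and its sum with the near-identical Lyz1 was 1.7-fold (1.69 to 1.71) lower. Of 25 genes of the unfolded protein response 0 were higher past 2-fold and 1, Atf6, was lower (125 against 257 CPM). Of 27 sterol and fatty acid synthesis genes 2 were past 2-fold higher, among them the desaturase Scd2 (220 against 107 CPM), and 0 were lower.

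Of 17 TGF-beta pathway genes 11 lay within 2-fold, 4 were at least 2-fold lower in CD103int DC and 2 higher. The median was -0.41, and -0.15 at equal totals. Past 2-fold, all genes gave 8.31% lower and 4.35% higher. The receptors Tgfbr1 (106 against 219 CPM) and Tgfbr2 (50.7 against 104) and the integrin chain Itgav (95.5 against 306) were lower in CD103int DC. The latency gene Lrrc32 was higher (14.6 against 5.06 CPM). In adhesion the integrin chains Itgal (140.1 against 720.1 CPM) and Itga4 (127 against 438) were lower, while the tetraspanins Cd81 (134 against 21.5) and Cd9 (148 against 64.9) were higher. All 10 TNF superfamily receptors compared lay below 0 (median -0.93), with Tnfrsf1b at 298 against 923 CPM and the death receptor Fas at 5.75 against 19.8. Heme and iron genes had a median of 0.20, with the metalloreductase Steap3 at 46.3 against 12.6 CPM and the ferritin genes Fth1 (2273 against 2298) and Ftl1 (2476 against 2213) level.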
